A study of Rattus norvegicus with 21 samples.

Results

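Transcripts of 5 secreted inflammatory mediators were followed across the spinal cord of the rat. The genes were chosen by Ensembl identifier from the 32883 identifiers in the count files: Il1b (ENSRNOG00000004649), Tnf (ENSRNOG00000055156), Ccl2 (ENSRNOG00000007159), Ccl3 (ENSRNOG00000011205) and Ccl4 (ENSRNOG00000011406). The rule itself used no measured value, but the genes were chosen with earlier results of these data known. The study asked how antibiotics delivered to the airway affect the central nervous system. All rats were LEW/Crl, wild type and 6 to 8 weeks old, and each had been dosed through the trachea for 7 days. PBS, the buffer, was given to the controls, and the other animals received the antibiotics neomycin (NEO) or vancomycin (VANCO). Bulk RNA was sequenced from 2 preparations of the cord. Microglia libraries came from CD45low CD11b+ cells that had been stained and sorted from myelin-depleted tissue, with 4 libraries per treatment, numbered 1, 2, 3 and 5. Total cord libraries came from the whole myelin-depleted pellet, with 3 libraries per treatment, numbered 1, 2 and 3. Whether a library was 1 animal or a pool is not in the labels, so each p-value measures the spread between these samples, which may be technical.

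The 5 genes encode messengers that innate immune cells release. Il1b encodes interleukin-1 beta, made as an inactive precursor that inflammatory caspases cleave before it acts on the interleukin-1 receptor. Tnf encodes tumour necrosis factor, a membrane-bound ligand that is shed and acts on the TNF receptors. Ccl2 attracts monocytes through the receptor Ccr2, and Ccl3 and Ccl4 are closely related chemokines that attract monocytes and T cells. In the nervous system microglia are a main source of these messengers. Transcription of all of them is known to rise quickly after activation through NF-kB and AP-1.

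The sequences just upstream are shown for the cytokine genes Il1b and Tnf, the only members with a sequence available. Il1b was detected in every library and Tnf had no count in any, and whether these sequences bear on that was not tested. RefSeq promoter sequences on build GRCr8 were found for 2 of the 5 genes, Il1b and Tnf. Each line gives the 250 bases before the annotated transcription start, 5′ to 3′ on the gene's strand, with the TATA box motif TATAAA in capitals. The Il1b window lies on the minus strand at chr3:137036582-137036831, and the Tnf window on the plus strand at chr20:3626435-3626684.
Il1b: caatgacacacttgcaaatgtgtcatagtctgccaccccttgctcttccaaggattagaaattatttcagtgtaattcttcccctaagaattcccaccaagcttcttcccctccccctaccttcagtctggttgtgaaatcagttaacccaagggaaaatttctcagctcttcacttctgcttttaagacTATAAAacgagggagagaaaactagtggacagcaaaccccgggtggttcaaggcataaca
Tnf: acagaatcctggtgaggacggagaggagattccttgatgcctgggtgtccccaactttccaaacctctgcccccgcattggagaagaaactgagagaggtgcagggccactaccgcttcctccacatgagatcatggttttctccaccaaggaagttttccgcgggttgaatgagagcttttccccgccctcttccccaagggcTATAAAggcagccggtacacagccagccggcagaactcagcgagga
TATAAA, searched on the gene's strand, occurred once in each window, with its first base 60 bases before the start of Il1b and 46 bases before that of Tnf. Of 33469 rat promoters of the same length, 8.06% held it. The AP-1 motif TGANTCA and the NF-kB consensus, each searched on both strands, had 0 matches in these windows, against 6.34 and 6.33% of all promoters. That says only that these letters were absent from these windows. In the same gene table Ccl2, Ccl3 and Ccl4 all lie on chromosome 10. Ccl3 and Ccl4 are neighbours with 0 protein-coding genes between them, and 34 separate Ccl2 from Ccl3.

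Library totals ranged from 9020480 to 22435887 counts in the 12 microglia libraries and from 16769410 to 25114844 in the 9 cord libraries. Levels are given as CPM, the count scaled to an equal library total, and compared within a gene only, because transcript lengths were not used. The labelled cell type was not tested against marker genes, because the files pair no identifier with a symbol. The microglia libraries were described instead by 1646 genes whose level in cord of PBS animals was at least 64-fold that in microglia. They made up 28.7 to 33.2% of counts in cord, 0.0367 to 0.306% in 11 microglia libraries and 2.57% in NEO library 2. The genes were picked from these same libraries, so a low share in microglia was set in advance and does not measure purity. Only the differences between microglia libraries are informative. In bulk RNA, fewer cells of a type and less RNA per cell cannot be told apart.

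Tnf was not detected. Its identifier had a count of 0 in all 21 libraries, out of 369290852 counts in all. A count of 0 allows up to 3 counts, which is 0.119 to 0.333 CPM in a single library and 0.0152 CPM over the 12 microglia libraries together. Of the identifiers in the files, 7346 (22.3%) were at 0 in every library. The sources used here give neither the annotation release nor the rule for reads that align more than once. Whether the annotation or the counting removed reads of Tnf was not tested, and Tnf entered no comparison.

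Il1b was the least variable of the 4 detected genes between microglia libraries. In PBS microglia it measured 33.7, 11.6, 14.4 and 14.7 CPM in libraries 1, 2, 3 and 5. In NEO microglia the values were 18.3, 10.2, 9.67 and 11.6 CPM, and in VANCO microglia 22.6, 10.7, 13.6 and 18.0 CPM. Library 1 was highest in every treatment, and the ranges of the treatments overlapped. The group means were 18.6 ± 10.1 CPM in PBS, 16.2 ± 5.22 CPM in VANCO and 12.5 ± 3.98 CPM in NEO (SD, n = 4 each).

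Ccl2, the monocyte attractant, spread much further between libraries of a treatment. It measured 323 (PBS library 1), 39.4, 77.4 and 73.6 CPM in PBS microglia. In NEO microglia it was at 191, 26.7, 49.5 and 51.8 CPM, and in VANCO microglia at 296, 29.4, 79.9 and 65.5 CPM, again in the order 1, 2, 3 and 5. Library 1 was highest and library 2 lowest in each treatment. Means were 128 ± 131 CPM in PBS, 118 ± 121 CPM in VANCO and 79.8 ± 75.0 CPM in NEO (SD, n = 4 each).

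Ccl3 and Ccl4, the closely related pair of chemokines, showed the same arrangement of libraries. Ccl3 was at 1028, 140, 343 and 254 CPM in PBS microglia, 934, 135, 295 and 200.0 CPM in NEO microglia and 1018, 107, 368 and 262 CPM in VANCO microglia. Within each library number, the 3 treatments lay closer together than the numbers did within any treatment. Ccl4 was at 750.1, 75.3, 168 and 171 CPM in PBS microglia, 836, 49.5, 139 and 98.7 CPM in NEO microglia and 744, 59.3, 179 and 136 CPM in VANCO microglia. The highest Ccl4 value of all libraries belonged to NEO library 1 and the lowest to NEO library 2. Mean Ccl3 was 441 ± 400 CPM in PBS, 439 ± 401 CPM in VANCO and 391 ± 368 CPM in NEO, and mean Ccl4 was 291 ± 309 CPM in PBS, 281 ± 372 CPM in NEO and 280 ± 314 CPM in VANCO (SD, n = 4 each).

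**Figure D1:**
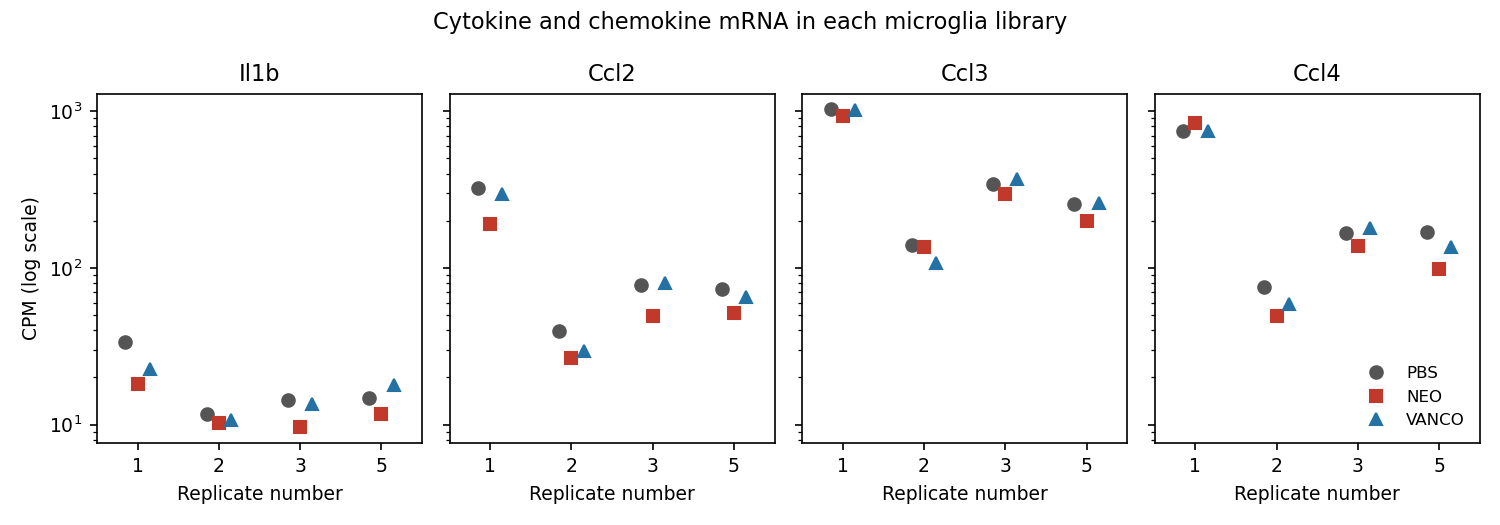
Each point is 1 microglia library, with CPM on a log axis against replicate number in a panel per gene. PBS is drawn as grey circles, NEO as red squares and VANCO as blue triangles. Number 1 was highest for all 4 genes in each treatment, up to 1028 CPM for Ccl3, and number 2 was lowest for the 3 chemokines.

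In total cord the same 4 transcripts were close to the limit of detection. Il1b had counts of 10, 6 and 6 in PBS libraries 1, 2 and 3, of 8, 6 and 8 in NEO and of 5, 8 and 5 in VANCO. Ccl2 had 11, 9 and 11 counts in PBS cord, 10, 6 and 6 in NEO cord and 3, 10 and 8 in VANCO cord. These counts overlapped between treatments for both genes. Ccl3 had 2, 4 and 22 counts in PBS cord, 7, 1 and 11 in NEO cord and 3, 4 and 7 in VANCO cord. Ccl4 had 5, 6 and 5 counts in PBS cord, 1, 3 and 8 in NEO cord and 4, 0 and 7 in VANCO cord. The most any of these libraries gave was 1.31 CPM, for Ccl3 in PBS library 3. The group means of the cord ran from 0.320 to 0.416 CPM for Il1b, from 0.362 to 0.588 CPM for Ccl2, from 0.254 to 0.548 CPM for Ccl3 and from 0.176 to 0.302 CPM for Ccl4.

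Ordered by group mean, all 3 microglia groups stood above all 3 cord groups for each of the 4 genes, with no overlap of single libraries. The share of all genes separated in this way was not counted. In PBS animals 45% of the 15546 genes tested were called higher in microglia (edgeR). These 4 passed the filter on low counts only through the microglia libraries, so their separation is not a finding by itself. Within a preparation the libraries of neighbouring groups overlapped for every gene.

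**Figure D2:**
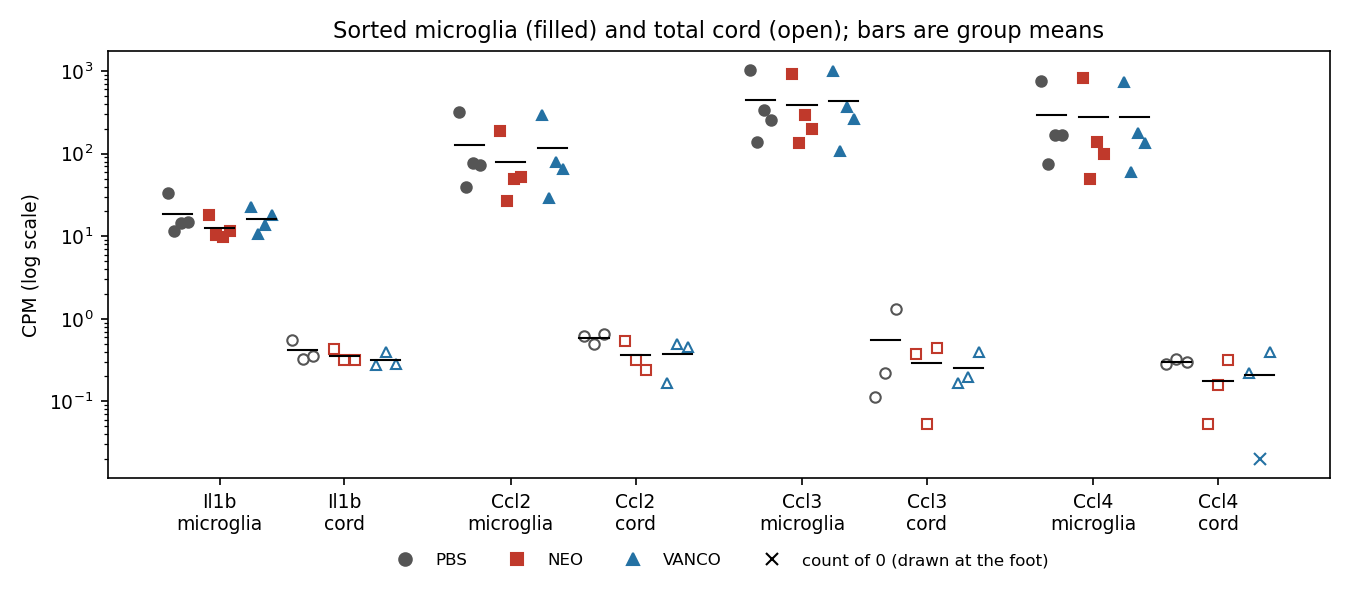
CPM on a log axis for each library of sorted microglia (filled symbols) and total cord (open symbols), with a black line at each group mean. A cross marks the single count of 0, for Ccl4 in VANCO cord library 2. The 3 chemokines were at 26.7 to 1028 CPM in microglia and at most 1.31 CPM in cord.

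The sorted cells were compared with the whole tissue to place the 4 genes among all transcripts that distinguish the preparations. In PBS animals Il1b was 40.1-fold, Ccl2 195-fold, Ccl3 728-fold and Ccl4 850.0-fold higher in microglia by edgeR's quasi-likelihood test. On the log2 scale these fold changes were 5.33 (SE 0.43), 7.61 (SE 1.15), 9.51 (SE 1.28) and 9.73 (SE 1.56), with adjusted p = 2.97e-09, 1.02e-05, 2.82e-06 and 1.93e-05. Of 15546 genes tested, 6991 (45%) were called higher in microglia, with a median fold of 2.70. Another scaling lowers that share: it was 33.1% with RLE factors, under which the median gene shifted by -0.50 (log2), and 37.6% with upper quartile factors, under which it shifted by -0.31. Only 12 genes were at least 256-fold higher and 5 at least 512-fold, and Ccl4 and Ccl3 ranked 2 and 3 among all genes by fold change. Ccl2 ranked 22 and Il1b 247. Single libraries moved these sizes. Without PBS microglia library 1 the log2 fold changes of Ccl2, Ccl3 and Ccl4 were 6.62, 8.68 and 8.68. Without PBS cord library 3, which held 22 of the 28 counts of Ccl3 in that group, Ccl3 was at 11.19 and above Ccl4, at 9.74. The order of Ccl3 and Ccl4 therefore rests on single libraries. For Il1b, leaving out 1 PBS library at a time gave 4.89 to 5.56. The 4 genes passed the filter on low counts only through the microglia libraries, so they had to differ here, and the size of the difference rather than the count of calls describes them.

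Ccl3 and Ccl4 stayed among the 4 highest-ranked genes in the antibiotic-treated animals. In NEO animals Ccl4 ranked 1 and Ccl3 ranked 2, with log2 fold changes of 10.34 (SE 1.61) and 10.17 (SE 1.33). Ccl2 was higher by 7.64 (SE 1.18) and Il1b by 4.97 (SE 0.43) on the same scale, in a comparison where 44% of genes were called higher in microglia. In VANCO animals, where 45% of genes were called higher, the log2 fold changes were 5.47 (SE 0.44) for Il1b, 8.10 (SE 1.20) for Ccl2, 10.56 (SE 1.36) for Ccl3 and 10.24 (SE 1.61) for Ccl4. Ccl3 ranked 2 and Ccl4 ranked 4 there. These folds rest on 11 to 22 counts per gene and cord group, and those of PBS animals on 16 to 31.

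Other microglia-enriched transcripts give a scale for this difference. The 1300 genes that were at least 8-fold higher in PBS microglia, without the members, made up 1.34 to 1.52% of counts in cord and 23.3 to 33.4% in microglia. They were picked by that fold in these same libraries, so a gap between their shares was set in advance. The 5 genes together made up 8.35e-05 to 0.000262% of counts in cord and 0.0207 to 0.213% in microglia. Sorted cells were also stained and passed through a sorter, which the cord pellet was not, so cell type and handling cannot be told apart.

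**Figure D3:**
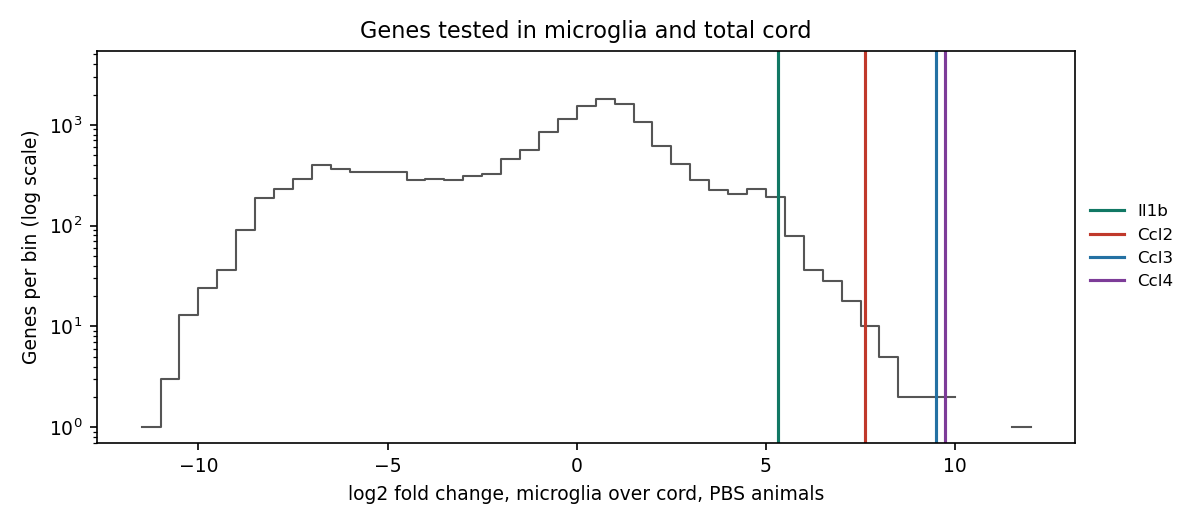
Number of genes per bin (log axis, step line) against the log2 fold change of microglia over cord in PBS animals, for the 15546 genes tested. Vertical lines mark Il1b at 5.33, Ccl2 at 7.61, Ccl3 at 9.51 and Ccl4 at 9.73, the chemokines in the far right tail.

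Between microglia libraries the replicate number, not the treatment, went with most of the variation of the 4 genes. Averaged over treatments on the log2 scale, number 1 exceeded number 2 by 12.1-fold for Ccl4, 7.92-fold for Ccl2, 7.41-fold for Ccl3 and 2.09-fold for Il1b. Of the variance of log2 CPM over the 12 libraries, the number took 97.1% for Ccl4, 98.3% for Ccl3, 94.2% for Ccl2 and 73.7% for Il1b. The treatment took 1.27%, 0.473%, 5.12% and 17.4% in the same order. The median of all 12570 genes tested was 53.9% for the number and 10.2% for the treatment, with 3 degrees of freedom for the number and 2 for the treatment.

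A test of the number in a model with treatment gave adjusted p = 0.0014 for Il1b, 5.68e-07 for Ccl2, 1.43e-06 for Ccl3 and 1.59e-06 for Ccl4 (edgeR). By this test 4496 of the 12570 genes (35.8%) differed between numbers. Smaller p-values belonged to 6.86% of genes for Il1b and to 0.0159, 0.0955 and 0.119% for Ccl2, Ccl3 and Ccl4. The spread between the highest and lowest number was larger than that of Ccl4 in 2.39% of genes, of Ccl2 in 4.21%, of Ccl3 in 4.49% and of Il1b in 14.3%. This test was chosen after the data had been seen. What the number stands for is not in the labels.

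The level of the 5 genes moved with other properties of the libraries. Together they made up 0.198 to 0.213% of counts in the 3 libraries numbered 1, 0.0362 to 0.0641% in those numbered 3 or 5 and 0.0207 to 0.0267% in those numbered 2. The libraries numbered 2 also had the most cord-enriched transcripts, at 0.306% in PBS, 0.303% in VANCO and 2.57% in NEO. Their microglia-enriched share was 28.7, 28.6 and 23.3%, against 31.3 to 33.4% in the other 9 microglia libraries. The part of these shares in the levels was not tested. In cord, numbers 1 to 3 gave counts of the 4 genes too low to read an order from.

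**Figure D4:**
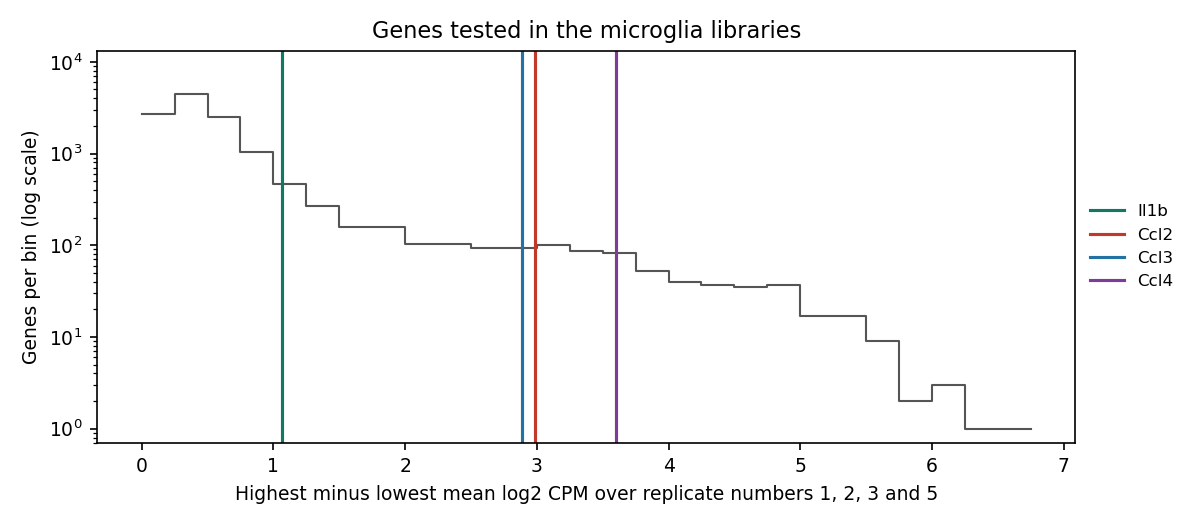
Number of genes per bin (log axis, step line) against the range between replicate numbers, the highest minus the lowest mean log2 CPM, in microglia. Lines mark Il1b at 1.06, Ccl3 at 2.89, Ccl2 at 2.99 and Ccl4 at 3.60, while the median gene was at 0.44.

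Neomycin was compared with PBS in microglia first. In the model of group means, called unpaired here, 0 of the 4 tested genes passed an adjusted p of 0.05 in edgeR, DESeq2 or limma-voom, and the lowest unadjusted p in edgeR was 0.13, for Il1b. Log2 fold changes were -0.56 (SE 0.34, adjusted p = 0.858) for Il1b, -0.66 (SE 0.88, adjusted p = 0.906) for Ccl2, -0.14 (SE 0.84, adjusted p = 0.984) for Ccl3 and -0.02 (SE 1.06, adjusted p = 0.999) for Ccl4. Among all 12570 genes 5 were called (0.0398%). The median log2 fold change of the 4 genes was -0.35, against 0.00 over all genes.

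Libraries of the same number were also compared with each other. Ccl2 was lower in NEO than in PBS in 4 of 4 numbers, with ratios of 0.592, 0.679, 0.639 and 0.704 for numbers 1, 2, 3 and 5. The ratios lay within a narrow band although the level of Ccl2 itself ranged from 26.7 to 323 CPM. Their geometric mean was 0.652. The share of all genes that were lower in 4 of 4 numbers was not counted, here or in the comparisons below. In the model with the number as a block, called paired here, Ccl2 was lower in NEO, at -0.61 on the log2 scale (SE 0.09, adjusted p = 0.015 in edgeR). In that model 94 of 12570 genes were called (0.748%), 67 higher and 27 lower in NEO.

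That call depended on single libraries although its size did not. The adjusted p (edgeR) was 0.0713 without NEO library 1, 0.096 without NEO library 3, and 0.0878, 0.0588, 0.0624 and 0.065 without PBS library 1, 2, 3 or 5. It was 0.000423 without NEO library 2, which held the most cord-enriched transcripts, and 0.0493 without NEO library 5. The log2 fold change of Ccl2 stayed between -0.65 and -0.57 over these 8 fits.

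The other cytokine and chemokine transcripts were not called in the paired model. Il1b was at 0.543, 0.879, 0.674 and 0.790 of its PBS level in NEO libraries 1, 2, 3 and 5, lower in 4 of 4, which is -0.50 on the log2 scale (SE 0.14, adjusted p = 0.174 in edgeR). Without NEO library 2 it was called, at -0.58 (edgeR adjusted p = 0.0246). The Ccl3 ratios were 0.908, 0.964, 0.860 and 0.787, or -0.17 on the log2 scale (SE 0.11, adjusted p = 0.472 in edgeR). Ccl4 was above its PBS level in NEO library 1, at 1.12, and below it in the others, at 0.658, 0.825 and 0.578. On the log2 scale this was -0.36 (SE 0.14, adjusted p = 0.333 in edgeR).

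**Figure D5:**
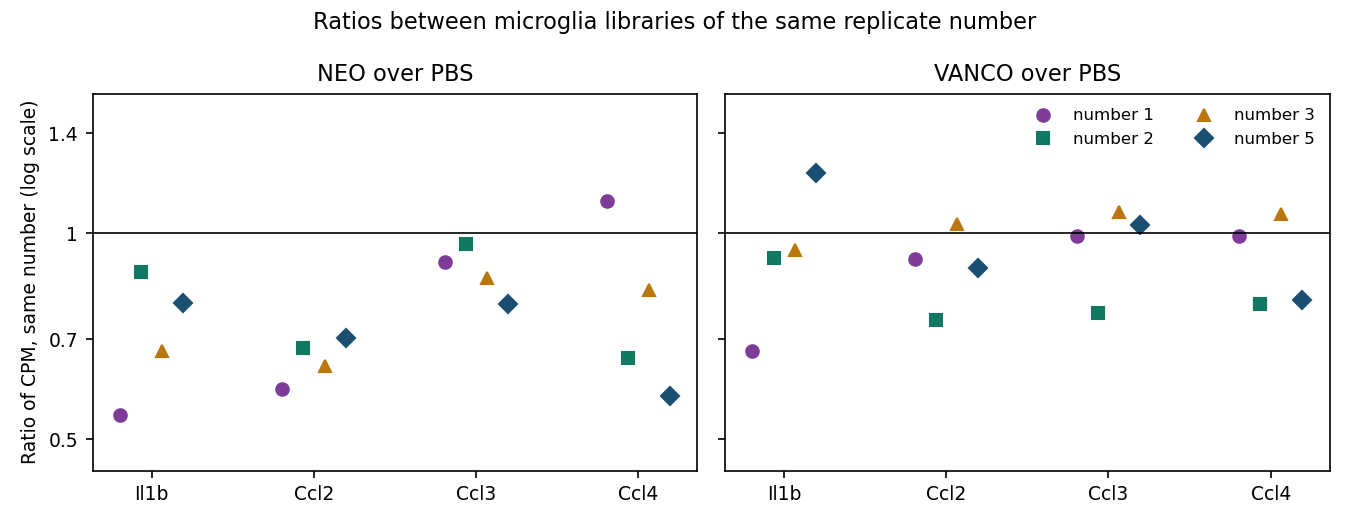
Ratio of CPM between microglia libraries of the same replicate number on a log axis, NEO over PBS at left and VANCO over PBS at right, with the line at a ratio of 1. The 4 Ccl2 points of NEO lie between 0.592 and 0.704, and those of VANCO between 0.748 and 1.03.

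Vancomycin was compared with PBS in microglia in the same way. In the unpaired model edgeR, DESeq2 and limma-voom each called 0 of the 4 genes, and edgeR gave none of them an unadjusted p under 0.05. Over all genes 0 of 12570 were called (0%), with 108 at an unadjusted p under 0.05. Log2 fold changes were -0.20 (SE 0.34) for Il1b, -0.12 (SE 0.88) for Ccl2, -0.01 (SE 0.84) for Ccl3 and -0.05 (SE 1.06) for Ccl4. With the number as a block they were -0.13 (SE 0.14), -0.16 (SE 0.09), -0.06 (SE 0.11) and -0.15 (SE 0.14), with 0 genes called in all (0%) and 365 at an unadjusted p under 0.05. Il1b ratios to PBS were 0.672, 0.920, 0.945 and 1.23 for numbers 1, 2, 3 and 5, and Ccl2 ratios were 0.918, 0.748, 1.03 and 0.889. Each gene was above its PBS level for at least 1 number.

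The antibiotics were set against each other directly, because both comparisons with PBS share the same PBS libraries. Unpaired, edgeR, DESeq2 and limma-voom each called 0 of the 4 genes, and edgeR gave none of them an unadjusted p under 0.05. Over all 12570 genes edgeR called 0 (0%), with 269 below 0.05 before adjustment. Ccl2 was lower in NEO than in VANCO in 4 of 4 numbers, at ratios of 0.645, 0.908, 0.619 and 0.792. Unpaired, edgeR put this at -0.54 on the log2 scale (SE 0.88, adjusted p = 0.999), and with the block at -0.45 (SE 0.09, adjusted p = 0.15). The paired model called 21 genes (0.167%) and none of these 4, which had 2 unadjusted p-values under 0.05, for Ccl2 (0.000568) and Il1b (0.0204). DESeq2 with the block called Ccl2 (adjusted p = 0.00309), and so did edgeR without NEO library 2 (adjusted p = 0.00817). Il1b was also lower in NEO in 4 of 4 numbers, by -0.37 on the log2 scale with the block (SE 0.14, adjusted p = 0.731 in edgeR).

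In cord, 0 of the 5 genes passed the filter on low counts that left 14677 genes. Without a filter, 22327 genes were tested, among them 4 of the 5, and edgeR called 0 of these 4 in any comparison of treatments. The lowest unadjusted p was 0.0695, for Ccl3 in VANCO against PBS with the number as a block. The other tools, DESeq2 and limma-voom, were run only on the filtered genes. Log2 fold changes of NEO against PBS were -0.22 (SE 0.47) for Il1b, -0.71 (SE 0.47) for Ccl2, -0.83 (SE 0.89) for Ccl3 and -0.65 (SE 0.73) for Ccl4. The lowest counts of PBS cord lay within the range of NEO cord for every gene. The share of all genes called without a filter was 0.0672% for NEO against PBS, 0% for VANCO against PBS and 0.0582% for NEO against VANCO. With the number as a block the shares were 1.12, 0.0358 and 0.775%, and the 4 genes again had 0 calls. At 0 to 22 counts per library, a difference of the size seen for Ccl2 in microglia could be missed in cord.

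Whether the response to an antibiotic differed between the preparations was tested as an interaction in a model of all 21 libraries. For NEO, 0 of the 4 genes were called, and 0 of 15546 genes in all (0%). The differences of the log2 fold changes, microglia minus cord, were -0.36 (SE 0.61) for Il1b, 0.03 (SE 1.18) for Ccl2, 0.66 (SE 1.55) for Ccl3 and 0.60 (SE 2.13) for Ccl4. For VANCO, 0 of the 4 genes and 0 of all genes (0%) were called, with differences from 0.14 (SE 0.60) for Il1b to 1.05 (SE 1.62) for Ccl3. With a block for each tissue and number, 0.193% of genes were called for NEO and 0.116% for VANCO, and the 4 genes had 0 calls. In these tests the lowest unadjusted p was 0.0895, for Ccl3 with VANCO, while DESeq2 and limma-voom called 0. The standard errors were larger than most of these differences. With the block the exceptions were Ccl3, at 0.66 (SE 0.48) for NEO and 0.93 (SE 0.51) for VANCO, and Ccl2 for VANCO, at 0.45 (SE 0.40). A difference between preparations was therefore neither shown nor excluded for these genes.

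The 4 detected genes varied together between microglia libraries of a treatment. Over 12 libraries, as deviations of log2 CPM from the treatment mean, Ccl3 and Ccl4 had Pearson's r = 0.987 and Spearman's rho = 0.958. Ccl2 had r = 0.986 with Ccl3 and r = 0.987 with Ccl4, both with rho = 0.895. Il1b followed less closely, with r = 0.929, 0.890 and 0.895 and rho = 0.797, 0.769 and 0.720 against Ccl2, Ccl3 and Ccl4. These values are a description without a p, because libraries of the same number were alike and the 12 libraries carry only 4 numbers. Without the 2 libraries farthest from the median of the first gene, r stayed between 0.814 and 0.986.

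This joint variation followed the replicate number. Without the 3 libraries numbered 1, which stood apart, r was 0.947 to 0.958 among the chemokines and 0.493 to 0.630 between Il1b and each chemokine. After the means of the numbers had been removed, r was 0.426 for Ccl3 and Ccl4, 0.573 for Ccl2 and Ccl3, -0.03 for Ccl2 and Ccl4, and 0.095, 0.240 and -0.45 for Il1b with Ccl2, Ccl3 and Ccl4. The relation therefore held between numbers and was not seen for every pair within them. In cord each library held 0 to 22 counts of a gene, too few to read a relation from.

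Among all transcripts, the 3 chemokines were near each other in their pattern over the 12 microglia libraries. Of 12569 other genes ranked by Pearson's r of log2 CPM, Ccl4 ranked 3 for Ccl3, with r = 0.985, and Ccl3 ranked 9 for Ccl4. For Ccl2, Ccl4 ranked 5 (r = 0.980) and Ccl3 ranked 15 (r = 0.973). For Il1b the best placed member was Ccl2, at rank 23 with r = 0.905. An r above 0.9 was reached by 142 genes for Ccl3, 169 for Ccl4, 162 for Ccl2 and 25 for Il1b. Each chemokine therefore had many other transcripts with a similar pattern, and whether these were the same genes was not examined. The libraries share their replicate numbers and treatments. The other genes are not named because the files pair no identifier with a symbol.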

How the data were processed

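The authors deposited 1 file of raw counts per library, whole numbers for 32883 rat Ensembl gene identifiers. The submitters' processing notes name the build rn6 and the tools featureCounts (1.5.0-p1), STAR (2.5.2a) and bcl2fastq (2.20.0.422). The sources used here do not give the strand setting, the annotation release or the rule for multiply aligned reads, and Ccl3 and Ccl4 are similar paralogs, so reads could have been split or dropped. Groups and replicate numbers came from the sample titles. The 27 pairs of libraries within groups differed by more than sampling noise (chi-square per degree of freedom 8.35 to 221), and all 21 libraries were kept.

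Counts were tested on all genes in R 4.3.3 with edgeR 4.0.16: filterByExpr, TMM factors, a robust quasi-likelihood F test and Benjamini-Hochberg adjustment at 0.05. Each SE was back-calculated from that test, as the absolute log2 fold change over the square root of F, and is approximate. The 12 microglia, the 9 cord and all 21 libraries formed separate models of group means (unpaired). The same models with the replicate number as a block (paired) were an alternative. Pairing was checked by correlating deviations of log2 CPM from group means across genes. Over the 12 same-number pairs of microglia libraries r was 0.244 to 0.794, and over the 9 in cord 0.359 to 0.588. Other pairs had -0.553 to 0.343 and -0.485 to 0.009, and deviations within a group cancel, which pushes these down. Log2 CPM used a prior count of 2. Correlations between the genes are given without a p, although a permutation of libraries within treatments had been planned, because same-number libraries are not independent. Other settings were DESeq2 1.42.0, voom in limma 3.58.1, upper quartile or RLE factors, other filters, other sets of libraries and each library or number left out. The code was tested on simulated data.

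The genes and lists were chosen with earlier results of these data known. The rule was to name the 5 genes in every comparison, and others only where a table paired the identifier with a symbol. Because 0 of the 32883 identifiers matched the gene table, the lists of receptors, NF-kB genes, other cytokines, immediate early genes and cell type markers were not analysed here. The names of the 5 genes come from the description of the set, by identifier. The precision of all levels is limited by counting error and by the number of libraries, and floors for a count of 0 cover counting error only.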

Additional observations from a re-analysis of the deposited data

Results flagged for a closer look

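In 5 of 12 sets of 4 microglia libraries (4 genes in 3 treatments), 1 library stood so far from the others that the gap to its neighbour exceeded Dixon's 95% critical value for the range of the set. For normally distributed values chance gives about 1 such set in 20, and the sets share libraries. On the log2 scale, examined after the data had been seen, 0 of the 12 sets passed, and in these 5 the gap was 0.635 to 0.780 of the range. All 5 were libraries numbered 1. Il1b was at 33.7 CPM in PBS library 1, with the next library at 14.7 CPM. Ccl2 was at 323 CPM (322.9) in PBS library 1, where the next library had 77.4 CPM, and at 191 CPM in NEO library 1, where the next had 51.8 CPM. Ccl4 was at 836 CPM in NEO library 1 against 139 CPM in the next, and at 750.1 CPM in PBS library 1 against 171 CPM. VANCO library 1 was highest in its group for all 4 genes without passing the critical value.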

How the results depend on the processing

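The log2 fold changes of microglia over cord in PBS animals ran over the alternatives from 4.83 to 5.56 for Il1b, 6.47 to 7.90 for Ccl2, 8.29 to 11.19 for Ccl3 and 8.46 to 10.28 for Ccl4; their sign and call carry no weight, since the genes passed the filter through microglia. With the replicate block, 1 of the 4 genes (Ccl2) was called for NEO against PBS, and 1 when number 2 was also left out. NEO against VANCO gave 1 call with the block and without number 2, and 1 with the block in DESeq2. With the block, leaving out 1 library at a time gave 0 to 2 calls for NEO against PBS and 0 to 1 for NEO against VANCO. The share of all genes called was not counted in these fits, nor in those with other tools, scalings or numbers left out. The paired Ccl2 call for NEO held with DESeq2 (adjusted p = 1.01e-06), limma-voom (0.0109), RLE (0.0174) and upper quartile (0.0138) factors and without a filter (0.00119), and had adjusted p = 0.21, 0.000819, 0.191 and 0.12 without number 1, 2, 3 or 5. In edgeR with all libraries kept, the block changed no other call of these genes. With the block, the other tools, scalings and filter and leaving out single libraries were chosen after the data had been seen. Stricter or other filters left 0 of the genes to test in cord, except no filter.

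Uncalled fold changes changed sign, and the cause was not tested. Leaving out 1 library of the compared groups at a time, unpaired log2 fold changes for NEO against PBS ran from -1.58 to 0.35 for Ccl2, -1.06 to 0.70 for Ccl3 and -1.60 to 1.06 for Ccl4. For NEO against VANCO they ran from -1.46 to 0.48, -1.05 to 0.70 and -1.54 to 1.20. For VANCO against PBS they ran from -0.40 to 0.25 for Il1b, -1.14 to 0.89 for Ccl2, -0.85 to 0.84 for Ccl3 and -1.22 to 1.02 for Ccl4, and with the block from -0.25 to 0.017 for Il1b and -0.12 to 0.066 for Ccl3. Leaving out 1 microglia or cord library, the interaction ran for NEO from -0.61 to 0.071 (Il1b), -0.88 to 1.02 (Ccl2), -1.02 to 1.49 (Ccl3) and -0.96 to 1.66 (Ccl4), and for VANCO from -0.10 to 0.57, -0.52 to 1.48, -0.63 to 1.88 and -0.64 to 1.56. Ccl4 in NEO against VANCO was -0.22 with limma-voom, -0.20 with the block and -0.35, -0.18, -0.15 and -0.12 with the block without number 1, 2, 3 or 5. Ccl3 in VANCO against PBS was 0.0010 without a filter and 0.043 with the block without number 2, and Il1b there was 0.025 with the block without number 1. Interactions with the block were -0.20 for Ccl4 (NEO, without number 1), -0.16 for Ccl4 (VANCO, without number 2), and without number 3 -0.25 for Ccl2 (NEO), -0.52 for Ccl3 (NEO) and -0.29 for Ccl3 (VANCO). With number means removed, r was -0.45 for Il1b and Ccl4 and -0.035 for Ccl2 and Ccl4.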
